A study of Rattus norvegicus with 39 samples.

Results

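The myelin genes Mbp, Mag, Mog, Mobp, Cnp, Mal and Cldn11 and the protease gene Klk6 were followed in the hippocampus of aged rats given different amounts of corticosterone, the glucocorticoid that rat adrenal glands secrete. The members were all probe sets whose single gene symbol in the platform annotation was one of these 8 genes. This gave 13 of the 8799 probe sets in the table and 7 of its 4736 named genes. Mag had 3 probe sets, Mog had 2, Mobp had 4, and Mbp, Cnp, Mal and Klk6 had 1 each. No probe set of the table used here carried the symbol Cldn11 alone, so that gene is not described. All 13 probe sets passed the filter on dim probe sets.

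The question was how hippocampal gene expression answers to glucocorticoid level. CA1 tissue, the subfield of the hippocampus that was dissected, was measured on 39 Affymetrix arrays, 1 for each male Fisher 344 rat, and all rats were 18 months old at the end. The injected group (LowCORT_injected, n = 10) was adrenalectomized, carried a 25 mg corticosterone pellet for 3 months, and was injected with corticosterone at 5 mg per day over the last 4 days. The IntermediateCORT group (n = 9) was adrenalectomized and carried a 200 mg pellet, and the LowCORT group (n = 10) was adrenalectomized and carried a 25 mg pellet. The Sham group (n = 10) kept its adrenal glands and received an inert pellet. Surgery was done at 14 to 15 months of age, and the adrenalectomized rats had corticosterone supplied until their pellets were placed. Per the labels, rats with the 25 mg pellet kept drinking saline with sucrose, so the fluid cannot be told apart from the low dose, and adrenalectomy cannot be told apart from the pellets in any comparison with Sham.

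Oligodendrocytes wrap axons of the brain in myelin, a stack of membranes held together by proteins that few other cells make. Mbp and Mobp encode basic proteins that hold the membrane layers of compact myelin together, Mag and Mog encode immunoglobulin-like glycoproteins of its inner and outer surfaces, Cnp encodes a phosphodiesterase of the non-compact parts, and Mal encodes a proteolipid of lipid rafts that takes part in membrane traffic. Klk6 encodes a secreted kallikrein-type serine protease that is enriched in oligodendrocytes, can cleave myelin basic protein, and can act on protease-activated receptors. Glucocorticoids act through a nuclear receptor that binds DNA, and oligodendrocytes carry that receptor.

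The arrays had medians between 7.27 and 7.33 on the log2 scale and correlated with each other at 0.974 to 0.998, with 0 identical pairs. Of 10 genes listed as CA1 pyramidal markers, 4 were tested and were read in every group (Pou3f1, Nr3c2, Htr1a and Nptx1), and the rest could not be checked here. Of 8 markers of mature oligodendrocytes, 6 were tested (Mbp, Mag, Mog, Mobp, Cnp and Mal). All 6 are members described here, so the list is not a separate measure of these cells. Its mean level ran over 10.37 to 11.03 in injected animals, 10.55 to 11.11 in IntermediateCORT, 10.46 to 11.06 in LowCORT and 10.62 to 11.08 in Sham. A sign of RNA or cDNA length, the difference between 3' and 5' control probe sets of Gapdh, averaged 1.03 ± 0.60 in the injected group, 0.63 ± 0.21 in IntermediateCORT, 0.81 ± 0.24 in LowCORT and 0.70 ± 0.22 in Sham (log2, SD, n = 10, 9, 10 and 10). The 3 arrays above 1.3 were all in the injected group.

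Klk6 was the member that differed between groups most clearly, with its high level in LowCORT animals. It was higher in LowCORT than in Sham, and lower in both IntermediateCORT and injected animals than in LowCORT. Cnp was lower in IntermediateCORT than in LowCORT. No other member passed the test, which was limma's moderated test with Benjamini-Hochberg adjustment over 6118 probe sets and a threshold of 0.05. In LowCORT against Sham, 1 of the 13 member probe sets was called, where 1.68% of all tested probe sets were called and 1.05% were called as higher. In IntermediateCORT against LowCORT, 2 members were called, both lower, and the background was 2.14% in either direction and 1.5% for lower. In injected against LowCORT, 1 member was called, as lower, and the background was 0.343% in either direction and 0.196% for lower. The comparisons of IntermediateCORT with Sham, injected with Sham and injected with IntermediateCORT had 0 member calls each, with backgrounds of 0.0163%, 0.229% and 0.196%. At an unadjusted p under 0.05, these 3 comparisons held 0, 1 and 2 member probe sets, of 258, 364 and 699 among all probe sets. The 3 comparisons with calls all used the same LowCORT arrays and are therefore not independent.

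The median log2 difference of the 13 probe sets was 0.01 in LowCORT against Sham, where the median of all tested probe sets was -0.01. In IntermediateCORT against LowCORT the median of the members was 8e-04, beside 0.01 over all tested probe sets, and in injected against LowCORT it was -0.04, beside 0.01. Positive and negative differences numbered 7 and 6 in both LowCORT against Sham and IntermediateCORT against LowCORT, and 6 and 7 in both injected against LowCORT and IntermediateCORT against Sham. They numbered 2 and 11 in injected against Sham, with a median of -0.03 beside 0.00 over all tested probe sets, and 5 and 8 in injected against IntermediateCORT. Over the 4 groups, limma's moderated F test called 1 member, Klk6 (adjusted p = 0.00223), against a background of 2.27%. Its p ranked 38 of 6118, while Cnp (adjusted p = 0.0527) and Mal (adjusted p = 0.0619) ranked 140 and 154.

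**Figure D1:**
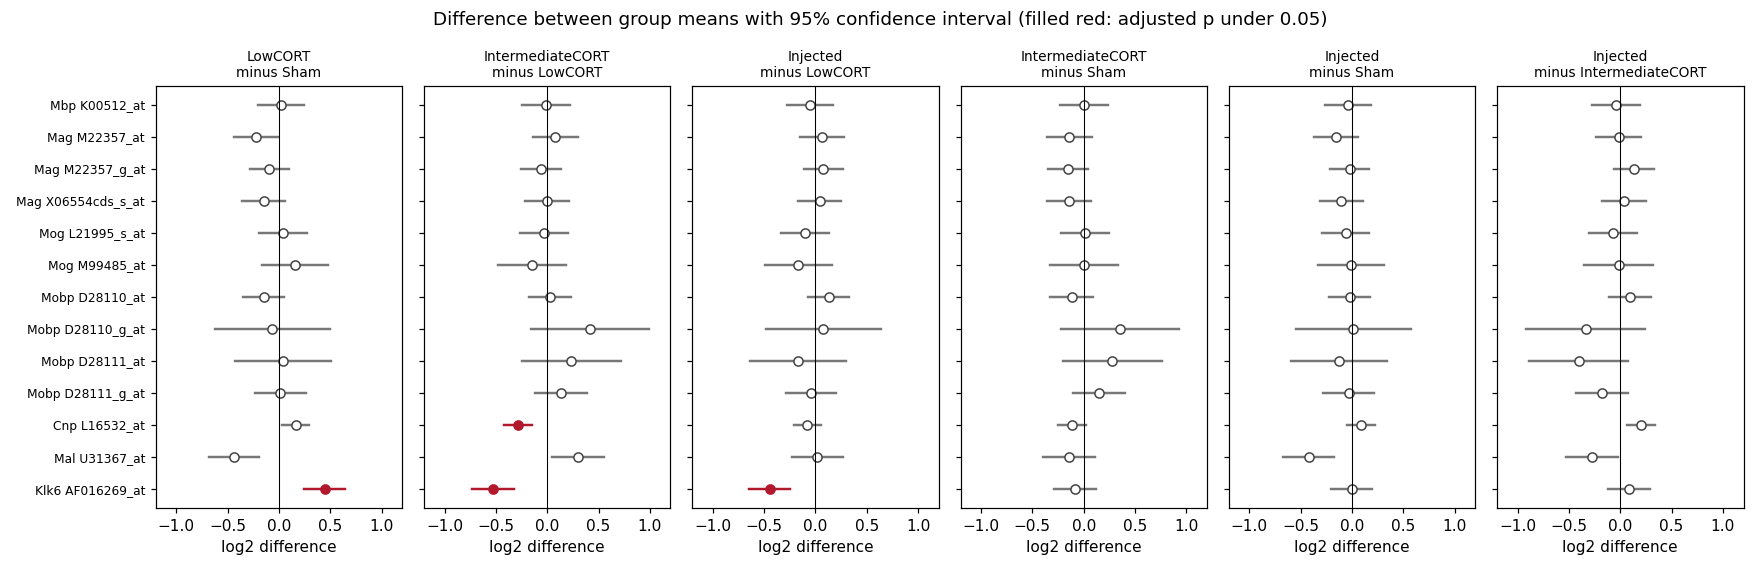
Log2 differences between group means (x axis) for the 13 member probe sets (rows) in the 6 comparisons (panels), each as the first named group minus the second, with bars for the 95% confidence interval from limma. Filled red points mark adjusted p-values under 0.05. Klk6 stands at 0.45 in LowCORT minus Sham, at -0.53 in IntermediateCORT minus LowCORT and at -0.45 in injected minus LowCORT, and Cnp at -0.28 in IntermediateCORT minus LowCORT.

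The promoters of Klk6 and Cnp are shown because both genes were lower in IntermediateCORT than in LowCORT, and that of Mal because its values had the opposite signs. The sequences are the 250 bases before a transcript start of RefSeq on the rat assembly GRCr8, written 5′ to 3′ on the strand of the gene. Capitals mark the letters TGTTCT (a glucocorticoid receptor half-site), ACAAAG and ACAATG (cores of Sox10-type sites) and CTGGCAC (a Myrf-type site), searched on both strands. Sox10 and Myrf are transcription factors of the oligodendrocyte lineage. Klk6 lies at chr1:103415266-103415515 on the plus strand, Cnp at chr10:86011254-86011503 on the plus strand and Mal at chr3:135341424-135341673 on the minus strand. RefSeq also places a start of Klk6 at base 103415411, inside the window shown.
Klk6: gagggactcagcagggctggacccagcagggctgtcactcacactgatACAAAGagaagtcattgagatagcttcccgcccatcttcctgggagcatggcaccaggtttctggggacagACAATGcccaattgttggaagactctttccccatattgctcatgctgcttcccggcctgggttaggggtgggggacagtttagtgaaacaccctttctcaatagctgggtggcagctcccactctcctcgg
Cnp: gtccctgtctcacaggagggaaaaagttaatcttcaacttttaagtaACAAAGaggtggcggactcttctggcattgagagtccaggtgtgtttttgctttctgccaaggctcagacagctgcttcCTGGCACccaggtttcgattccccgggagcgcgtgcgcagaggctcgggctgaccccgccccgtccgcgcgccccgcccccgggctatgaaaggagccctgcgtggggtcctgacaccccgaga
Mal: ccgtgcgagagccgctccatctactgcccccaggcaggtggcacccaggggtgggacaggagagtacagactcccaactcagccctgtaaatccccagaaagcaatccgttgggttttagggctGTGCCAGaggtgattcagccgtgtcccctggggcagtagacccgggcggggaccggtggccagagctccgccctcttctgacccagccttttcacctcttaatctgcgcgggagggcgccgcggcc

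ACAAAG begins 202 bases before the start of Klk6 and 203 bases before that of Cnp, on the plus strand of each, and occurs in 17.2% of the promoters of 27457 genes in windows of the same length. Klk6 also holds ACAATG 131 bases before its start, as do 11.9% of genes. CTGGCAC begins 124 bases before the start of Cnp, and its reverse complement stands 126 bases before that of Mal. It occurs in 4.09% of genes, and Mag (chr1:95291045-95291294, minus strand) also holds it, 94 bases before its start. Genes with no called difference held the Sox10-type letters too. Mobp (chr8:128746982-128747231, plus strand) holds ACAAAG 8 times, all on the minus strand, Mag holds it 152 bases before its start on the minus strand, and 1 of the 2 Mbp starts has ACAAAG 1 time and ACAATG 2 times. The half-site TGTTCT, found in 18.5% of genes, is in the windows of Mobp and of the same Mbp start. The full glucocorticoid response element, an inverted repeat that contains that half-site, was searched only as an exact match to the perfect repeat. That exact form occurs in 1 gene of all 27457 and in none of the 6 members searched. Because it is this rare among all genes, its absence cannot set the members apart. Response elements that depart from the perfect repeat were not searched. These matches describe letters in the windows only. RefSeq promoters were matched for 6 of the 7 genes. Mog is named here without one. As for Klk6, RefSeq also places a start of Mag at base 95291133 and one of Mobp at base 128747117, inside their windows. Distances hold only for the starts used.

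Klk6 (probe set AF016269_at) had log2 values of 7.80 to 8.67 in injected animals (median 8.31), 8.04 to 8.35 in IntermediateCORT (median 8.22), 8.36 to 9.04 in LowCORT (median 8.82) and 7.90 to 8.69 in Sham (median 8.29). The LowCORT animals were the high ones: 7 of 10 lay above every Sham animal, and all 10 lay above the Sham mean. All 9 IntermediateCORT animals lay below every LowCORT animal, the closest pair being 8.35 in IntermediateCORT and 8.36 in LowCORT, and 6 of 10 injected animals lay below every LowCORT animal. The group means were 8.30 ± 0.26 in injected animals, 8.21 ± 0.09 in IntermediateCORT, 8.74 ± 0.23 in LowCORT and 8.30 ± 0.27 in Sham (SD, n = 10, 9, 10 and 10). IntermediateCORT had the smallest spread of the 4 groups.

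The LowCORT mean exceeded the Sham mean by 0.45 on the log2 scale (SE 0.10), a 1.36-fold level, with adjusted p = 0.00812 in limma. IntermediateCORT was lower than LowCORT by a log2 difference of -0.53 (SE 0.10), or a change of -30.7%, with adjusted p = 0.00176. The injected group, which had the same pellet as LowCORT and 4 days of added corticosterone, was lower than LowCORT by a log2 difference of -0.45 (SE 0.10), with adjusted p = 0.0249. Neither treated group differed from Sham past the threshold: the log2 difference was -0.08 for IntermediateCORT (95% interval -0.29 to 0.12) and -5e-04 for injected animals (-0.20 to 0.20). In order of level, LowCORT thus stood first and apart, and Sham, injected and IntermediateCORT followed without a difference past the threshold between any pair of them.

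The Sham animals themselves fell into high and low values by subject number, which is an order in the labels and is not stated there to be a batch. Subjects 1 to 5 had Klk6 values of 8.33 to 8.69 and subjects 6 to 10 had 7.90 to 8.25, with no overlap. The other groups did not divide this way, as subjects in the first and last parts of LowCORT spanned 8.36 to 8.84 and 8.41 to 9.04. Against Sham subjects 1 to 5 only, the LowCORT difference was 0.23 and was not called (adjusted p = 0.264), and against subjects 6 to 10 it was 0.67 (adjusted p = 0.000349). The adjusted p over all 12 alternative settings ran from 1.47e-05 to 0.264. The call of injected against LowCORT was lost with 3'–5' differences as covariates (adjusted p = 0.0753), with only those 2 groups (0.112), without the 3 arrays of high Gapdh difference (0.086), and without each of LowCORT subjects 21, 25, 28 and 29 and injected subjects 33 and 34 in turn, with a highest adjusted p of 0.0693. Over the 12 alternatives it ran from 0.000477 to 0.112.

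With the mean of the Mbp, Mag, Mog and Mobp probe sets of highest level as a covariate, a setting chosen after seeing the data, all 3 Klk6 differences stayed past the threshold. They were 0.46 for LowCORT against Sham (adjusted p = 1.47e-05), -0.55 for IntermediateCORT against LowCORT (2.4e-06) and -0.41 for injected against LowCORT (0.000477). The 3 differences without the covariate were 0.45, -0.53 and -0.45. In whole tissue, fewer cells of a type and less RNA per cell cannot be told apart.

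**Figure D2:**
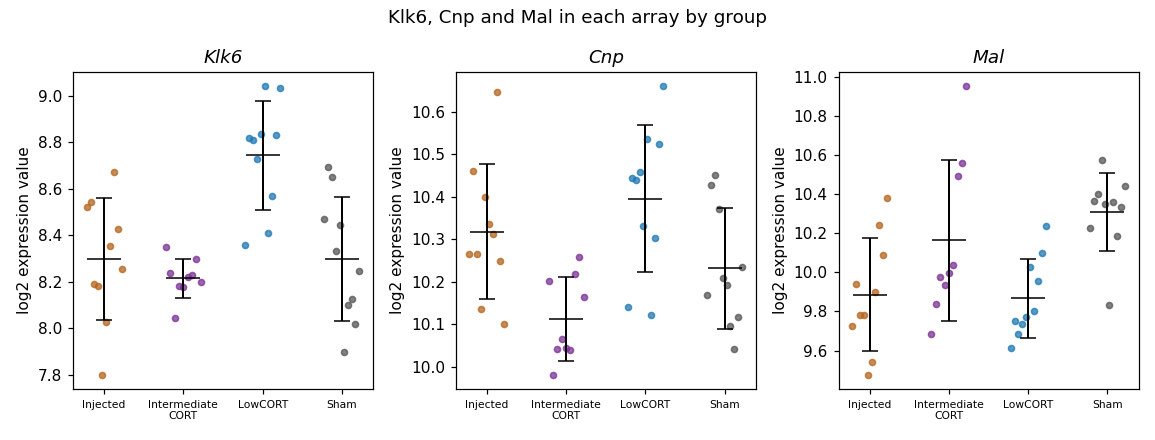
Log2 expression values of Klk6, Cnp and Mal (y axes, each panel with its own scale) in each array, by group, with injected, IntermediateCORT, LowCORT and Sham animals in this order. Points are single animals, and black bars are the mean ± SD (n = 10, 9, 10 and 10). LowCORT animals lie above all 9 IntermediateCORT animals for Klk6, and Sham animals are the highest on average for Mal.

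Cnp (L16532_at), the phosphodiesterase that oligodendrocytes make from early in their development, had log2 values of 10.10 to 10.65 in injected animals (median 10.29), 9.98 to 10.26 in IntermediateCORT (median 10.06), 10.12 to 10.66 in LowCORT (median 10.44) and 10.04 to 10.45 in Sham (median 10.20). The groups overlapped in every pair, but all 9 IntermediateCORT animals lay below the LowCORT mean and 5 of them below every LowCORT animal. The difference between IntermediateCORT and LowCORT was -0.28 (SE 0.07), a change of -17.8%, with adjusted p = 0.0137 in limma, and it was called in all 12 alternatives. Some of these, such as both Sham subsets, removed no array of either group. LowCORT exceeded Sham by 0.16 (SE 0.07, adjusted p = 0.24), which did not pass. Injected animals exceeded IntermediateCORT by 0.20 (SE 0.07, adjusted p = 0.22), which passed only when arrays were weighted by quality (adjusted p = 0.0357). The adjusted p of that difference over the 12 alternatives ran from 0.0357 to 0.28. Cnp had a small spread within groups, with an SD of 0.15 that ranked at the 40.7th percentile of tested probe sets.

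Mal (U31367_at), the raft proteolipid, took another course, and none of its comparisons passed the test. Its log2 values were 9.48 to 10.38 in injected animals (median 9.84), 9.69 to 10.95 in IntermediateCORT (median 10.00), 9.61 to 10.24 in LowCORT (median 9.79) and 9.83 to 10.58 in Sham (median 10.36). All 10 LowCORT animals lay below the Sham mean and 6 lay below every Sham animal. The means were 9.89 ± 0.29 in injected animals, 10.16 ± 0.41 in IntermediateCORT, 9.87 ± 0.20 in LowCORT and 10.31 ± 0.20 in Sham.

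The Mal difference between LowCORT and Sham was -0.44 (SE 0.12), with adjusted p = 0.0514 in limma, just past the threshold on the side of no call. It was called in 8 of the 12 alternatives, with the lowest adjusted p of 0.000138 when the 3'–5' differences were covariates and the highest of 0.454 over all 12. Leaving out single arrays brought it under the threshold in 11 of 39 fits (adjusted p from 0.0195 to 0.0901). Of the arrays left out there, Sham subject 6 (-0.49, adjusted p = 0.0215) and LowCORT subject 29 (-0.48, 0.0359) belong to this comparison. The others were IntermediateCORT or injected arrays, whose loss left the difference at -0.44 and moved only the shared spread and the adjustment. The injected group differed from Sham by -0.42 (SE 0.12, adjusted p = 0.213), and IntermediateCORT from LowCORT by 0.30 (SE 0.13, adjusted p = 0.303). With the 3'–5' differences as covariates the injected difference was -0.42 (adjusted p = 0.0238) and the IntermediateCORT difference was 0.39 (adjusted p = 0.0111), and with subject order as a covariate the injected one was called too (adjusted p = 0.0346). Over the 12 alternatives the adjusted p ran from 0.0238 to 0.998 for injected against Sham and from 0.0111 to 0.376 for IntermediateCORT against LowCORT. Mal followed subject number in LowCORT, at 9.61 to 9.77 in the first 5 subjects and 9.80 to 10.24 in the last 5, and in IntermediateCORT, at 9.69 to 10.00 in the first 5 and 10.04 to 10.95 in the last 4, with no overlap in either. The highest beta-actin 3' minus 5' differences of these groups were in late subjects too. They were 1.68 and 1.49 in LowCORT subjects 28 and 29 and 1.45 in IntermediateCORT subject 19, while the first LowCORT subject, 20, had 1.04. The part of RNA quality in this order was not tested. Klk6 and Mal had opposite signs in LowCORT against Sham, at 0.45 and -0.44.

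The structural myelin transcripts Mbp, Mobp, Mag and Mog showed no called difference in any of 60 comparisons of their 10 probe sets, and 1 of the 60 had an unadjusted p under 0.05. Their lowest adjusted p in limma was 0.356. This does not show equal levels, and the intervals give the sizes that these arrays could not tell apart from none.

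Mbp (K00512_at), the basic protein that Klk6 can cleave, had log2 values of 12.27 to 13.24 in injected animals (median 12.98), 12.46 to 13.30 in IntermediateCORT (median 12.99), 12.47 to 13.33 in LowCORT (median 12.94) and 12.61 to 13.25 in Sham (median 12.96). The groups overlapped almost fully, and the 4 medians lay within a narrow band. The difference was 0.02 in LowCORT against Sham (95% interval -0.21 to 0.24), -0.01 in IntermediateCORT against LowCORT (-0.24 to 0.22) and -0.05 in injected against LowCORT (-0.28 to 0.17). Its F test p ranked 5978 of 6118.

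Mobp, the second basic protein, was read by 4 probe sets, of which D28110_at and D28110_g_at, and likewise D28111_at and D28111_g_at, are named for the same sequence and are not independent. D28111_g_at, the one with the highest mean, had values of 11.13 to 12.50 in injected animals (median 11.87), 11.83 to 12.57 in IntermediateCORT (median 12.02), 11.61 to 12.36 in LowCORT (median 11.83) and 11.23 to 12.22 in Sham (median 11.94). The groups overlapped, and injected animals spread the widest. IntermediateCORT against LowCORT differed by 0.14 (95% interval -0.12 to 0.39). D28110_g_at had the largest difference of the structural probe sets there, 0.42, with an interval of -0.16 to 0.99 and adjusted p = 0.623. D28110_g_at and D28111_at spread by 0.65 and 0.55 (SD within groups), at the 99.6th and 99.1th percentiles of all tested probe sets. D28110_at spread by 0.23, at the 78.2th percentile.

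Mag, the glycoprotein of the inner myelin surface, had negative log2 differences for LowCORT against Sham at all 3 probe sets, of which none was called. M22357_at was at 8.71 to 9.70 in injected animals (median 9.17), 8.90 to 9.30 in IntermediateCORT (median 9.21), 8.83 to 9.30 in LowCORT (median 9.09) and 8.88 to 9.73 in Sham (median 9.38). All 10 LowCORT animals lay below the Sham mean, but only 2 lay below every Sham animal. The LowCORT differences were -0.22 (95% interval -0.43 to -0.0046), -0.10 (-0.29 to 0.10) and -0.15 (-0.36 to 0.06) for M22357_at, M22357_g_at and X06554cds_s_at. Against Sham subjects 1 to 5 only, a subset chosen after seeing the data, M22357_at differed by -0.41 and was called (adjusted p = 0.037). Against subjects 6 to 10 only, it was not called. Subjects 1 to 5 were at 9.23 to 9.64, subjects 7 to 10 at 8.88 to 9.00, within the LowCORT range, and subject 6 at 9.73.

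Mog, the glycoprotein of the outer surface, had 2 probe sets. L21995_s_at was at 8.76 to 9.80 in injected animals (median 9.41), 9.14 to 9.65 in IntermediateCORT (median 9.49), 9.00 to 9.70 in LowCORT (median 9.47) and 8.74 to 9.72 in Sham (median 9.48). M99485_at was at 8.33 to 9.76 in injected animals (median 9.12), 8.84 to 9.77 in IntermediateCORT (median 8.97), 8.72 to 9.81 in LowCORT (median 9.25) and 8.21 to 9.53 in Sham (median 9.19). All groups overlapped at both. The differences of LowCORT against Sham were 0.04 (95% interval -0.19 to 0.27) and 0.15 (-0.17 to 0.48).

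**Figure D3:**
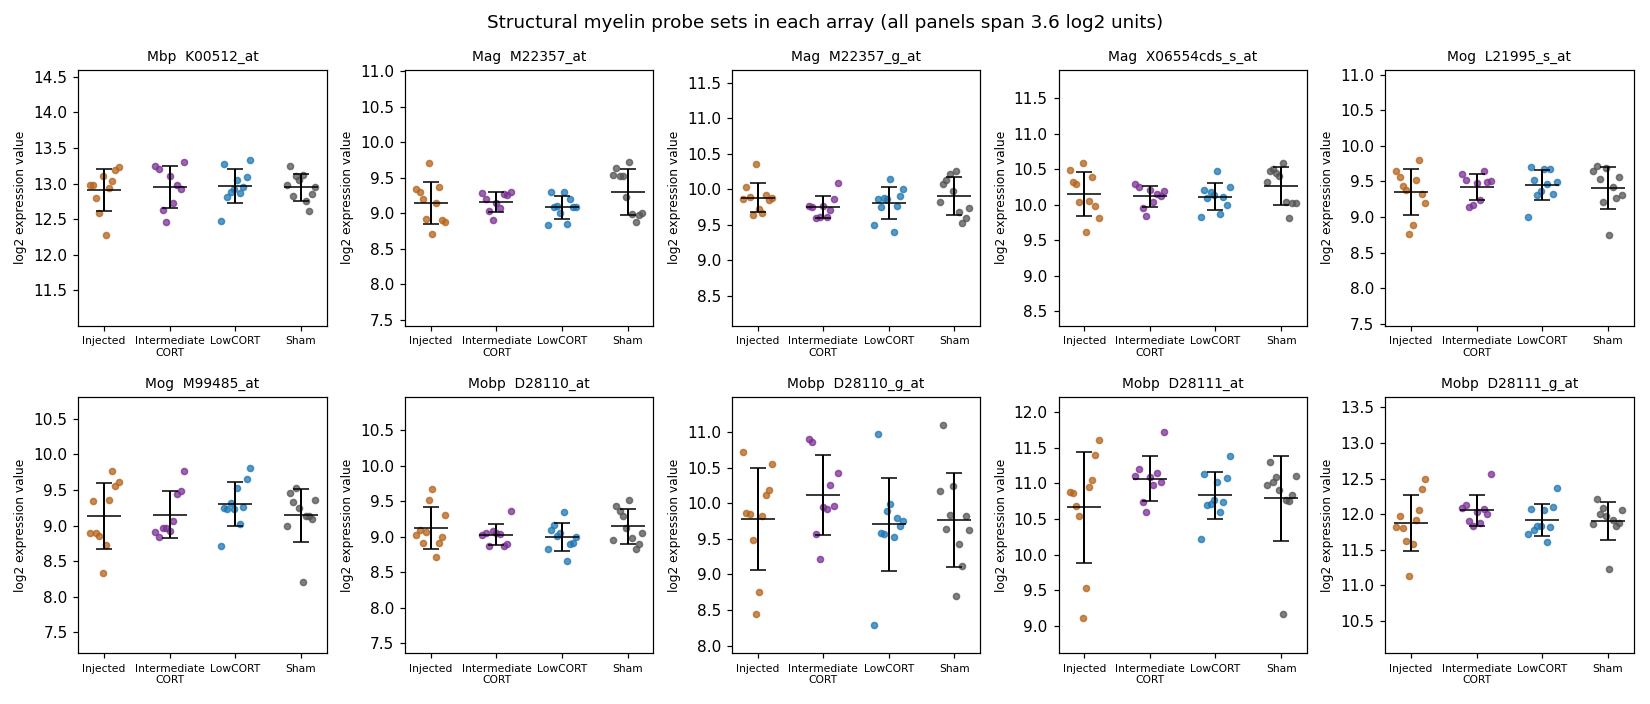
Log2 expression values of the 10 probe sets of Mbp, Mag, Mog and Mobp in each array (points) with mean ± SD (black), by group, with injected, IntermediateCORT, LowCORT and Sham animals in this order. Every panel spans the same width on the y axis. The groups overlap in all panels, and D28110_g_at and D28111_at of Mobp spread the widest, with SDs within groups of 0.65 and 0.55.

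Among 68 other myelin and oligodendrocyte genes, 28 were tested and only Enpp2 was called. Enpp2 encodes autotaxin, a secreted enzyme that makes lysophosphatidic acid and is made by oligodendrocytes. It was higher in LowCORT than in Sham by 0.40 (SE 0.11, adjusted p = 0.0409 in limma) and lower in IntermediateCORT than in LowCORT by a log2 difference of -0.44 (SE 0.11, adjusted p = 0.0207). Its second probe set gave 0.38 (adjusted p = 0.0717) and -0.51 (adjusted p = 0.0114). Enpp2 is also known from the choroid plexus, of whose 7 listed markers 2 were tested. In the same comparisons Ttr, which encodes transthyretin, differed by -0.21 (adjusted p = 0.528) and 0.06 (adjusted p = 0.93), and Kl, which encodes Klotho, by 0.07 (adjusted p = 0.627) and -0.08 (adjusted p = 0.63), so that Kl had the signs of Enpp2 and Ttr did not. The part of choroid plexus in the Enpp2 difference was not tested. Pllp, the myelin proteolipid plasmolipin, and Scd, a fatty acid desaturase, had the next smallest F test p-values (adjusted p = 0.0742 and 0.0926). Pllp differed by -0.29 in IntermediateCORT against LowCORT (adjusted p = 0.0741).

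In IntermediateCORT against LowCORT, 20 of the 28 genes had a negative log2 difference, with a median of -0.07 beside 0.01 over all tested probe sets, and 7 of the 28 (25%) had an unadjusted p under 0.05, beside 727 of all 6118 probe sets (11.9%). In LowCORT against Sham the median was 0.01 beside -0.01, and 4 of 28 (14.3%) had an unadjusted p under 0.05, beside 13.6% of all probe sets. The list had 0 calls in injected against LowCORT, IntermediateCORT against Sham, injected against Sham and injected against IntermediateCORT, where 3, 2, 6 and 10 genes (10.7%, 7.14%, 21.4% and 35.7%) had an unadjusted p under 0.05, beside 7.37%, 4.22%, 5.95% and 11.4% of all probe sets. In IntermediateCORT against Sham 24 of the 28 differences were negative, and in injected against IntermediateCORT 20 were positive.

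**Figure D4:**
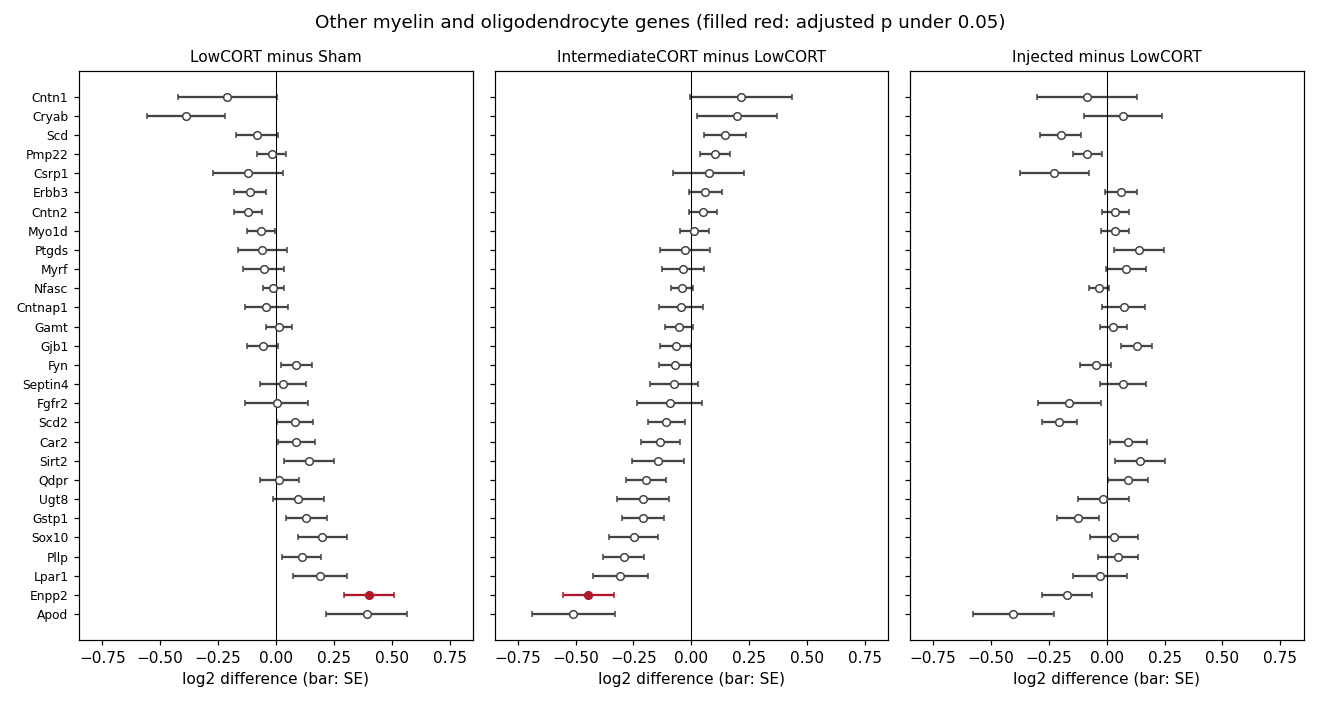
Log2 differences (x axes, with SE as bars) of the 28 tested genes of the other myelin and oligodendrocyte list (rows, ordered by the middle panel) in LowCORT minus Sham, IntermediateCORT minus LowCORT and injected minus LowCORT. Filled red points mark an adjusted p under 0.05 in limma. Of these genes Enpp2 is marked, at 0.40 and -0.44 in the first 2 panels, and 20 of 28 genes lie below 0 in the middle panel.

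Genes related to Klk6 by function did not pass the test. Of 38 listed kallikreins, thrombin-type receptors, other secreted proteases and their inhibitors, 18 were tested and 0 were called in any of the 6 comparisons. In LowCORT against Sham, 5 of the 18 had an unadjusted p under 0.05, beside 13.6% of all probe sets (lowest adjusted p = 0.0771 in limma). In IntermediateCORT and in injected animals against LowCORT, 2 each did, beside 11.9% and 7.37%. In IntermediateCORT against Sham, injected against Sham and injected against IntermediateCORT, 1 each did, beside 4.22%, 5.95% and 11.4%. Klk8, another kallikrein of the hippocampus, differed by 0.19 in LowCORT against Sham (SE 0.14, adjusted p = 0.592). F2r, the thrombin receptor, differed by 0.00 (SE 0.05, adjusted p = 0.995), and F2rl1, protease-activated receptor of the trypsin type, by -0.03 (SE 0.05, adjusted p = 0.837). The smallest F test p-values belonged to Serpina3n, a serine protease inhibitor, Plaur, the urokinase receptor, and Tfpi, an inhibitor of tissue factor (adjusted p = 0.207, 0.275 and 0.429). Of 10 oligodendrocyte precursor genes, 5 were tested and 0 were called. Pdgfra, the growth factor receptor of these cells, differed by -0.23 in IntermediateCORT against LowCORT (SE 0.07, adjusted p = 0.0623), Cspg5 by -0.22 and Bcan by 0.10.

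Of 24 genes of cholesterol and lipid synthesis, which supplies myelin membrane among other uses, 14 were tested. Sqle, the squalene epoxidase, and Insig1, which holds back the sterol sensor complex, were lower in LowCORT than in Sham, with log2 differences of -0.26 (SE 0.07, adjusted p = 0.033) and -0.28 (SE 0.08, adjusted p = 0.043). Insig1 and Fdft1, the squalene synthase, were higher in IntermediateCORT than in LowCORT, by 0.30 (SE 0.08, adjusted p = 0.0229) and 0.38 (SE 0.11, adjusted p = 0.0477). A second probe set of Fdft1 was called in that comparison too (0.22, adjusted p = 0.048) and was lower in LowCORT than in Sham (-0.23, adjusted p = 0.043). The first one was not called in LowCORT against Sham (-0.29, adjusted p = 0.154). Sqle and Insig1 were also lower in injected animals than in Sham (-0.29 and -0.37, adjusted p = 0.0467 and 0.0119), and Insig1 was lower in injected animals than in IntermediateCORT (-0.40, adjusted p = 0.0117, where 0.0817% of all tested probe sets were called as lower). No gene of the list was called in injected against LowCORT (lowest adjusted p = 0.052). There 3 of the 14 genes had an unadjusted p under 0.05, beside 7.37% of all tested probe sets.

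Single genes on the lists of other cell types were called in comparisons in which Klk6 was called. Of 7 tested microglia and macrophage genes, Fcgr2b, an Fc receptor, was higher in LowCORT than in Sham by 0.54 (adjusted p = 0.000951 in limma), lower in IntermediateCORT than in LowCORT (-0.60, adjusted p = 0.000412) and lower in injected animals than in LowCORT (-0.43, adjusted p = 0.037). Cd53, a leukocyte tetraspanin, was lower in IntermediateCORT than in LowCORT (-0.25, adjusted p = 0.0229). Aif1 was not called at its probe set of highest mean, the one counted here. Of its 3 probe sets, 1 other was higher in LowCORT than in Sham (0.53, adjusted p = 0.0396). That probe set was also lower in IntermediateCORT than in LowCORT (-0.54, adjusted p = 0.0335). The 7 genes had 5 positive and 2 negative differences in LowCORT against Sham, and 2 and 5 in IntermediateCORT against LowCORT. In injected against LowCORT they had 3 and 4, with a median of -0.0055. The mean level of that list ran over 8.06 to 8.39 in injected animals, 8.02 to 8.25 in IntermediateCORT, 8.10 to 8.42 in LowCORT and 8.06 to 8.24 in Sham.

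Of 8 endothelial and pericyte genes, Slco1a4, an organic anion transporter of brain capillaries, was higher in LowCORT than in Sham (0.56, adjusted p = 0.000421), and Slco1a4 and Kcnj8, a potassium channel of pericytes, were lower in IntermediateCORT than in LowCORT (-0.60 and -0.63, adjusted p = 0.000352 and 0.0452). The 8 genes had 5 positive and 3 negative differences in LowCORT against Sham, and 2 and 6 in IntermediateCORT against LowCORT. In injected against LowCORT they had 3 and 5, with 0 calls. Their list ran over 7.87 to 8.11 in injected animals, 7.74 to 7.99 in IntermediateCORT, 7.91 to 8.22 in LowCORT and 7.82 to 7.98 in Sham. Of 8 astrocyte genes, Agt, which encodes angiotensinogen, was lower in LowCORT than in Sham (-0.41, adjusted p = 0.00773) and higher in injected animals than in LowCORT (0.38, adjusted p = 0.037), and the list ran over 10.51 to 11.08 in injected animals, 10.66 to 10.95 in IntermediateCORT, 10.46 to 11.00 in LowCORT and 10.63 to 11.11 in Sham. The astrocyte genes had 2 positive and 6 negative differences in LowCORT against Sham, and 3 and 5 in injected against LowCORT.

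Among neuronal lists, Nr3c2, the mineralocorticoid receptor, was the CA1 gene called (0.44 in LowCORT against Sham, adjusted p = 0.0218), and Calb1, a calcium-binding protein listed for dentate granule cells and also made by CA1 pyramidal cells, was lower in LowCORT than in Sham (-0.61, adjusted p = 0.000457) and higher in IntermediateCORT than in LowCORT (0.60, adjusted p = 0.000904). Camk2a was lower in injected animals than in IntermediateCORT (-0.57, adjusted p = 0.0251). The tested genes of CA3, of choroid plexus and ependyma, of Schwann cells and of neighbouring forebrain numbered 3, 2, 2 and 5. Each list had 0 calls at the probe set of highest mean of each gene. A second probe set of Prkcd, a gene of the neighbouring forebrain list, was lower in IntermediateCORT than in LowCORT (-0.29, adjusted p = 0.0453 in limma). The part of other cell types in the Klk6 and Cnp differences was not tested.

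Within groups, animals with more of 1 member tended to have more of the others. Group means were removed, each gene was represented by its probe set of highest mean, and 16 of 21 pairs passed by permutation over 39 arrays with Benjamini-Hochberg adjustment over the pairs. Without the 2 arrays farthest from the median of the first gene of a pair, 12 pairs passed. Correlations were positive for 19 of 21 pairs, with a median Pearson's r of 0.41. The median was 0.34 within the injected group, 0.56 within IntermediateCORT, 0.68 within LowCORT and 0.45 within Sham. These points share arrays and their RNA quality, and after the 3'–5' differences were also removed 15 pairs passed.

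Klk6 went with Mog at r = 0.715 and rho = 0.645, each with permutation p = 1e-05, the smallest that 100000 permutations can give, and r was 0.61 without the 2 farthest arrays. It went with Cnp at r = 0.65 (p = 2e-05) and rho = 0.64 (p = 3e-05), and at r = 0.58 without the 2 farthest. It went with Mobp at r = 0.64 (p = 1e-05) and rho = 0.62 (p = 3e-05), and at 0.65 without the 2 farthest. Klk6 had a lower r with Mbp (0.42, p = 0.00724), Mag (0.42, p = 0.00783) and Mal (0.41, p = 0.00816). The rho values were 0.41 (p = 0.00927), 0.53 (p = 0.00069) and 0.41 (p = 0.00985). Without the 2 farthest arrays r was 0.40, 0.36 and 0.52 for Mbp, Mag and Mal. The highest pair was Mobp and Mal, at r = 0.76 and rho = 0.72 (each p = 1e-05), and the lowest were Mag with Mobp and Mag with Mal, at r = -0.05 and -0.02 (permutation p = 0.776 and 0.92). Mag went with Mbp at r = 0.60 (p = 7e-05) and rho = 0.55 (p = 0.00032), and with Cnp at r = 0.575 (p = 0.00015) and rho = 0.61 (p = 7e-05).

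Probe sets of the same gene did not always rank the animals alike. The 3 Mag probe sets correlated at r = 0.78 to 0.92 and the 2 Mog probe sets at r = 0.55 with rho = 0.31 (permutation p = 4e-04 and 0.053). Of the Mobp probe sets, D28110_g_at, D28111_at and D28111_g_at correlated at 0.67 to 0.93. D28110_at stood apart from them, at r = -0.08 with D28110_g_at, -0.31 with D28111_at and -0.08 with D28111_g_at (permutation p = 0.631, 0.0555 and 0.63). After the 3'–5' differences were removed these were 0.37, 0.21 and 0.33.

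Several members varied with the control measures of RNA length. Of 26 relations between the 13 probe sets and the Gapdh and beta-actin differences, 11 passed after adjustment, and 6 of those were negative. Mal followed the beta-actin difference at r = 0.695 and rho = 0.653 (permutation p = 1e-05 and 3e-05), at 0.67 without the 2 farthest arrays, and at 0.84, 0.85, 0.68 and 0.49 within injected, IntermediateCORT, LowCORT and Sham animals. Mobp D28111_g_at did so at r = 0.67 and rho = 0.475 (p = 3e-05 and 0.00261), and at 0.54 without the 2 farthest. The 2 Mog probe sets went with different controls. L21995_s_at had r = -0.61 with the Gapdh difference (p = 6e-05), where M99485_at had r = -0.02 (p = 0.9), and M99485_at had r = 0.64 with the beta-actin difference (p = 2e-05), where L21995_s_at had r = 0.00 (p = 0.994). Klk6 had r = -0.31 and 0.13, and Cnp had r = -0.09 and -0.06, none of which passed (permutation p = 0.0545, 0.429, 0.609 and 0.697). The number of relations that passed was 6 without the 2 farthest arrays.

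**Figure D5:**
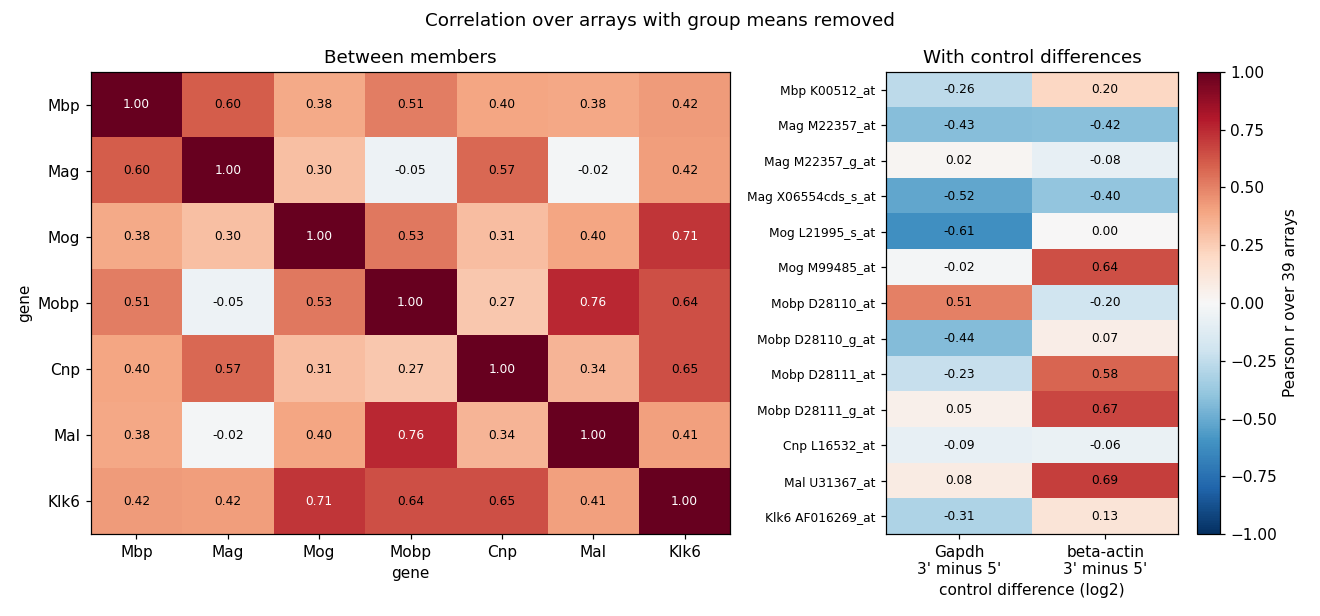
Pearson's r over 39 arrays with group means removed, between the 7 member genes (left, probe set of highest mean for each) and between the 13 member probe sets and the 3' minus 5' differences of the control probe sets of Gapdh and beta-actin (right). Red is positive and blue negative. Klk6 has r = 0.715 with Mog and 0.65 with Cnp, Mag is near 0 with Mobp and Mal, and Mal has r = 0.695 with the beta-actin difference.

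Among 3613 other tested genes, those whose values followed a member most closely within groups were named by Pearson's r over the 39 arrays, as a description. For Klk6 they were Cd82 (0.79), a tetraspanin, S100a1 (0.77), a calcium-binding protein, and Padi2 (0.77), an enzyme that converts arginine to citrulline in proteins. For Cnp they were Pllp (0.86), Txnip (0.75) and Litaf (0.75). For Mal they were Stmn1 (0.85), Ugt8 (0.85), the enzyme that makes myelin galactolipids, and Fah (0.84).

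Mbp was followed by Lpar1 (0.705), a lysophosphatidic acid receptor of oligodendrocytes, Ncl (0.67) and Add3 (0.65), and Mobp by Enpp2 (0.87), Crp (0.84) and Rpl4 (0.83). Mag was followed by Slc6a9 (0.80), a glycine transporter, Aldh7a1 (0.75) and Fxyd1 (0.75), and Mog by Cd9 (0.90), a tetraspanin, Slc16a1 (0.87), a lactate transporter, and Mat2a (0.85). Of these 21 genes, Pllp, Ugt8, Lpar1 and Enpp2 were also on the list of other myelin and oligodendrocyte genes.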

How the data were processed

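Per the file headers and the values, the authors deposited log2 expression values of 8799 probe sets on 39 arrays. The base was read from their range (2.82 to 14.37). Per the submitters' processing notes, MAS5, RMA and R 2.7.1 were used. The role of each is not stated in the labels. Arrays hold no read depth, and their number limits the precision. Groups came from the labels, which name no batch and no pairing.

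No further normalization was applied. The 59 control probe sets were left out, and 6118 probe sets with a mean at or above the 30th percentile (log2 6.28) entered the test. The fit used limma 3.58.1 (R 4.3.3) on all 39 arrays with a mean for each of 4 groups, 35 residual degrees of freedom and Benjamini-Hochberg adjustment over all 6118. Tests are two-sided. Group values are means ± SD, and the p-values measure the spread between animals. The fit was tested on simulated data. Alternatives were quantile normalization, no filter, a 50th percentile filter, array weights, 3'–5' differences or subject order as covariates, a trended robust variance, the 2 groups alone, each array left out, and 4 settings added after seeing the data.

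All members, each list's called genes and its 3 smallest F test p-values, and the 3 genes most like each member were named. Each listed gene was counted by its tested probe set of highest mean. F2r, F2rl1, Klk8, Ttr and Kl were added after their values were seen. The members and lists were chosen with earlier results of these data known.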

Additional observations from a re-analysis of the deposited data

Results flagged for a closer look

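In 7 of 52 sets of values (13 probe sets in 4 groups) a single animal stood far from the rest of its group, by a rule that chance meets in about 1 in 20 sets. Sham subject 6 was the lowest of its group for Mog L21995_s_at at 8.74 (next lowest 9.21), Mog M99485_at at 8.21 (8.99), Mobp D28111_at at 9.17 (10.75), Mobp D28111_g_at at 11.23 (11.84) and Mal at 9.83 (10.18). The same animal was the highest Sham animal for all 3 Mag probe sets (9.73, 10.26 and 10.58) and for Mobp D28110_at (9.52). It was also the lowest Sham animal for Klk6 (7.90) and Mobp D28110_g_at (8.70), without meeting the rule there. Its Mbp value of 13.12 was not apart. It had the lowest beta-actin 3' minus 5' difference of the Sham arrays (0.10) and a Gapdh difference of 0.96. IntermediateCORT subject 19 was the highest of its group for Mobp D28110_at at 9.36 (next highest 9.08) and Mobp D28111_g_at at 12.57 (12.13), and had the highest Gapdh and beta-actin differences of its group (1.10 and 1.45). Injected subject 34 did not meet the rule but was the highest of its group for all 3 Mag probe sets (9.70, 10.36 and 10.58). It was the lowest for both Mog probe sets (8.76 and 8.33), Mobp D28111_at (9.11), Mal (9.48) and Klk6 (7.80), with a beta-actin difference of 0.17. Without Sham subject 6, the Mal difference of LowCORT against Sham was -0.49 and was called (adjusted p = 0.0215 in limma). The part of RNA quality in these values was not tested.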

How the results depend on the processing

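Of 3978 recomputed log2 differences of members, 3944 stayed on their side of the threshold, 10 lost a call and 24 gained one. The sign changed in 225, of which 0 were called under either setting. Among them, Klk6 in IntermediateCORT against Sham was 0.14 with Sham subjects 6 to 10 only, against -0.08 with all Sham animals. The calls of Klk6 and Cnp in IntermediateCORT against LowCORT held in all 12 alternatives and in all 39 fits without a single array. Both Sham subsets, the fit without the arrays of high Gapdh difference and the loss of single Sham or injected arrays left these differences unchanged. Those fits removed no array of either group and could move only the shared spread and the adjustment. For LowCORT against Sham, 2 members were called rather than 1 with quantile normalization, a 50th percentile filter, array weights, 3'–5' covariates, subject order, the 2 groups alone, the myelin mean as a covariate, or without the arrays of high Gapdh difference, where Mal joined Klk6. With Sham subjects 1 to 5 only, Klk6 was lost and Mag M22357_at was called. With Sham subjects 6 to 10 only, Klk6 stayed called and Mag M22357_at was not called. For injected against LowCORT, 0 members were called with 3'–5' covariates, the 2 groups alone, or without the arrays of high Gapdh difference. Injected against Sham had 1 call with 3'–5' covariates or subject order (Mal), and injected against IntermediateCORT had 1 with array weights (Cnp). The F test called 2 members with quantile normalization, the 50th percentile filter, 3'–5' covariates or Sham subjects 6 to 10, and 3 with array weights, subject order, the myelin mean, or without the arrays of high Gapdh difference. With a single array left out, member calls ran from 1 to 2 for LowCORT against Sham, 2 to 2 for IntermediateCORT against LowCORT, 0 to 1 for injected against LowCORT, 0 to 0 elsewhere and 1 to 3 in the F test. The number of probe sets called among all 6118 moved by more than 1.5 times with array weights, to 170, 338, 50, 2, 33, 105 and 307, against 103, 131, 21, 1, 14, 12 and 139 (LowCORT against Sham, IntermediateCORT against LowCORT, injected against LowCORT, IntermediateCORT against Sham, injected against Sham, injected against IntermediateCORT, then the F test). LowCORT against Sham had 175 calls with 3'–5' covariates, 185 with subject order and 31 with Sham subjects 6 to 10. Injected against LowCORT had 36 with subject order and 12 without the arrays of high Gapdh difference. IntermediateCORT against Sham had 12 with 3'–5' covariates, 2 with subject order, 4 with the 2 groups alone and 3 with Sham subjects 1 to 5. Injected against Sham had 22 with 3'–5' covariates, 30 with subject order, 5 with the 50th percentile filter, 1 with the 2 groups alone and 1 with Sham subjects 6 to 10. Injected against IntermediateCORT had 19 with 3'–5' covariates, 21 with subject order, 23 with the myelin mean, 6 with the 50th percentile filter and 0 with the 2 groups alone. The F test had 224 with subject order and 90 with Sham subjects 6 to 10. Correlations with the control differences passed for 6 relations without the 2 farthest arrays, against 11. Those between members passed for 12 pairs without the 2 farthest arrays, against 16. The myelin mean, the arrays left out for their Gapdh difference and both Sham subsets were settings chosen after seeing the data. The cause of these changes was not tested. No paired analysis was possible because every subject number belongs to a single animal.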
